A study of Mus musculus with 6 samples.

Results

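The genes described here are those of the insulin-like growth factors (IGFs) and of the secreted proteins that bind them: the ligand genes Igf1 and Igf2, the binding protein genes Igfbp1 to Igfbp7, and Igfals, which encodes the acid-labile subunit. They were chosen by gene name, and the 10 names matched 10 of the 52405 gene identifiers in the deposited table. Their RNA was measured in cells of the kidney proximal tubule, from female C57BL/6 adults whose kidneys were uninjured. The 3 KO libraries came from mice in which Igf1r, the gene of the IGF receptor, was deleted in the proximal tubule, and the 3 control (Ctr) libraries from mice without that deletion. All animals of both groups had been ovariectomized at postnatal day 21. Cells were taken from dissociated kidney cortex on magnetic columns with an antibody to prominin-1, a surface protein of the tubule, per the labels' protocols. The promoter that drove the deletion is not given in the sources used here. The replicates are labelled biological but are not tied to animals, so the p-values measure the spread between these libraries. Where 3 values of a group stand in a row, they follow the replicate numbers 1, 2 and 3. The labels do not pair KO and Ctr libraries of the same number, so ratios within a number are descriptions without a test. The share of all genes with the same direction within every number was not counted, so such a run in a single gene has no measure beside it.

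IGFs are small peptides related to insulin, and both signal through Igf1r, a receptor tyrosine kinase. In blood and tissue fluid most IGF is held by the high-affinity binding proteins Igfbp1 to Igfbp6, which lengthen its life in blood and can keep it from the receptor, or, when they are cut by proteases, release it. Igfbp7 shares the fold of the amino-terminal part of the family but binds IGFs only weakly. The acid-labile subunit joins IGF and Igfbp3 or Igfbp5 in a large complex in blood and is known mainly as a product of the liver. In insulin and IGF signalling the kinase AKT keeps FOXO transcription factors out of the nucleus. Igfbp1 is a textbook gene of this arm in liver, where FOXO1 acts on an insulin response element ahead of the gene.

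The stretches of genome just before 3 of the genes are shown because 2 of them, Igfbp7 and Igfbp4, held most of the family's RNA, and the third, Igfbp1, holds letters that match the insulin response element. Each is the 250 bases before the RefSeq start site on the strand of the gene, build GRCm38.p6: chr5:77408046-77408295 (minus strand) for Igfbp7, chr11:99040994-99041243 (plus strand) for Igfbp4 and chr11:7197537-7197786 (plus strand) for Igfbp1. Capitals mark CAAAACA and CAAAATA, the parts of the insulin response element, and TATAAA, the letters of a TATA box, each searched on both strands.
Igfbp7: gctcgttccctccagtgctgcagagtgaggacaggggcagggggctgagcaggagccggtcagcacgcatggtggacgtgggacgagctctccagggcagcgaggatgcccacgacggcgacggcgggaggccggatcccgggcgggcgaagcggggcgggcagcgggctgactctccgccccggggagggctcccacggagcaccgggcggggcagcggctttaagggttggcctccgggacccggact
Igfbp4: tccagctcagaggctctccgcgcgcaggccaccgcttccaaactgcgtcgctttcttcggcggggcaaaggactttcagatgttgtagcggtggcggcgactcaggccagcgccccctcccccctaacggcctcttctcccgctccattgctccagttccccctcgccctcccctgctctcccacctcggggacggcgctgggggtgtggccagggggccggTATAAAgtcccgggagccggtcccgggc
Igfbp1: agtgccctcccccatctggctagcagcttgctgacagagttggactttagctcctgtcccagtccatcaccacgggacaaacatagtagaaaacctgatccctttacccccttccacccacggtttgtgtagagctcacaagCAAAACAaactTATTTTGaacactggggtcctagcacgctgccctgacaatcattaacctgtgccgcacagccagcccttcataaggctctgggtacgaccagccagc

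The Igfbp1 window held CAAAACA on the plus strand and CAAAATA on the minus strand, in a run of 18 bases, CAAAACAAACTTATTTTG, at positions -108 to -91 from the start. The parts do not overlap. Of 32851 RefSeq promoter windows of this length, 5.56% held CAAAACA, 3.95% held CAAAATA and 0.381% held both. RefSeq gave 16 windows for the 10 genes, and Igfbp1 was the 1 gene of the 10 with both parts. The Igfbp4 window held TATAAA at position -28, a run of letters found in 12.4% of windows. None of these letters was found in the Igfbp7 window, which was 74.0% G and C, against a median of 52.4% over all windows. A match of letters is a description of the window, and binding of any factor was not measured.

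Depth was even across the libraries. It lay between about 19700000 and 25200000 fragments, as estimated from the steps in the values of genes with few reads. Whether the unit counted was a fragment or a single read is not known, so these numbers of fragments, here and for the genes below, may be 2 times too high. Igf1r itself had 4.78, 7.67 and 5.08 FPKM (fragments scaled to transcript length and to the size of the library) in KO, against 18.7, 15.3 and 22.7 FPKM in Ctr. The groups did not overlap, and the log2 change was -1.55 (SE 0.19, limma adjusted p = 0.267). Proximal tubule markers were abundant in every library, with a summed FPKM over 12 genes of 4922, 4829 and 5491 in KO and 5604, 4696 and 6014 in Ctr, led by the phosphate transporter gene Slc34a1. Thick limb markers were abundant too (7 genes, 2062 to 4065 summed FPKM, led by the uromodulin gene Umod), so the samples were not made of proximal tubule RNA alone. Both libraries numbered 1 stood apart in glomerular transcripts. Podocyte markers (6 genes, led by Podxl and Synpo) summed to 168 FPKM in KO replicate 1 and 225 FPKM in Ctr replicate 1, against 10.2 and 11.6 FPKM in KO replicates 2 and 3 and 16.4 and 11.5 FPKM in Ctr replicates 2 and 3. Endothelial markers (12 genes, led by Emcn, Egfl7 and Ehd3) summed to 210.5 FPKM in KO replicate 1 and 262 FPKM in Ctr replicate 1, against 26.4 to 38.3 FPKM in the other 4 libraries. Every podocyte and endothelial marker was above 0 in every library.

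Transcripts of the family were dominated by Igfbp7 and Igfbp4, and those of the ligands were scarce. The summed FPKM of the 10 genes was 1614, 1480 and 1599 in KO and 1752, 1415 and 1786 in Ctr. This was 0.187 to 0.248% of all FPKM in a library. In order of mean FPKM over the 6 libraries the genes were Igfbp7 (985), Igfbp4 (534), Igfbp5 (48.6), Igfbp1 (25.8), Igfals (8.45), Igfbp3 (2.58), Igf1 (2.20), Igf2 (0.803), Igfbp6 (0.273) and Igfbp2 (0.235). Ranges over the libraries overlapped between these neighbours: Igfbp5 and Igfbp1, Igfbp3 and Igf1, Igf2 and Igfbp6, and Igfbp6 and Igfbp2. The other neighbours in the order were apart in all 6 libraries. FPKM is scaled by transcript length, so these levels can be set side by side.

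**Figure D1:**
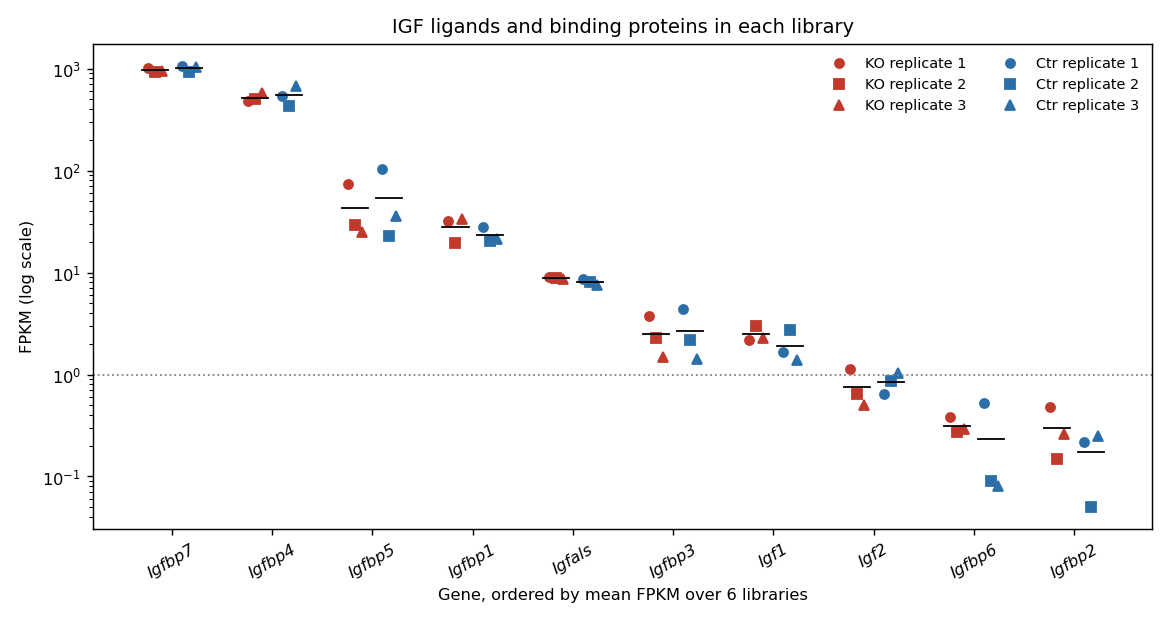
FPKM (log scale) of the 10 genes in each library, KO in red to the left and Ctr in blue to the right, with a marker shape per replicate number, a black line at each group mean and a dotted line at the filter of 1 FPKM. Igfbp7 and Igfbp4 lie at 433 FPKM or more in every library, and for each gene the KO and Ctr values overlap or touch.

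No gene of the family passed the test of KO against Ctr. Over all 12770 genes with a mean of at least 1 FPKM, 0.0235% passed (limma on log2(FPKM + 1), adjusted p under 0.05), and 0.0313% in a fit that also had the replicate number as a term. Of the family, 7 genes were in that test and 0 passed in either fit. Of these 7, 3 had a higher and 4 a lower estimate in KO, where 43.6% of all genes tested had a higher one. Their median log2 change was -0.04, beside -0.02 over all genes. None of the 7 (0) had an unadjusted p under 0.05, beside 3.51% of all genes. Igf2, Igfbp2 and Igfbp6 were below the filter. For 0 of the 10 genes did the KO values lie wholly on one side of the Ctr values, while 8.59% of all genes tested had groups that did not overlap. In exact two-sided permutation tests of the 10 genes one by one, the smallest p was 0.2, that of Igfals, where 3 against 3 libraries can give no less than 0.1. The added 1 shrinks the log2 changes of scarce transcripts.

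**Figure D2:**
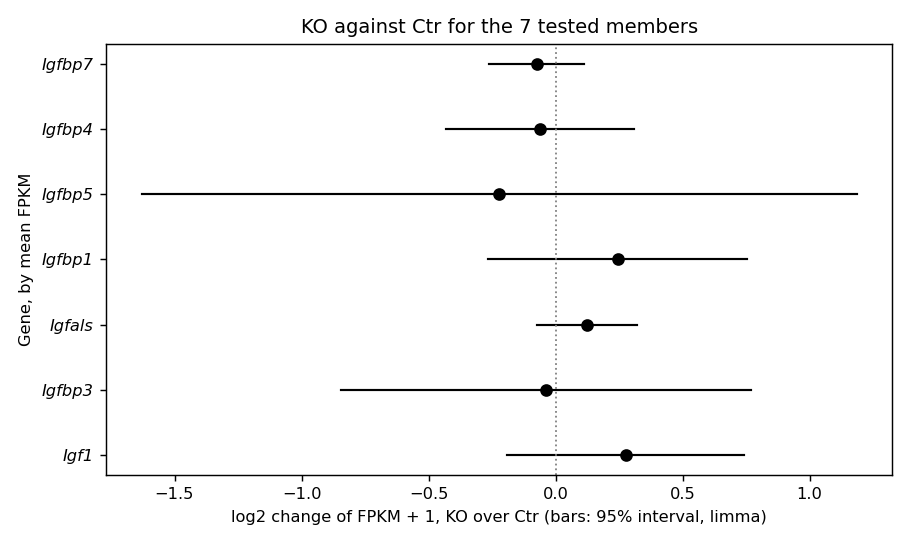
Log2 change of FPKM + 1, KO over Ctr, for the 7 genes tested, ordered from the most abundant at the top; points are limma estimates and bars 95% intervals. All 7 intervals hold 0, and the interval of Igfbp5 is the widest, from -1.63 to 1.19.

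The ligand Igf1, which most tissues make under growth hormone, had 2.19, 2.98 and 2.27 FPKM in KO, against 1.65, 2.71 and 1.38 FPKM in Ctr. The groups overlapped, since Ctr replicate 2 lay above 2 of the KO libraries. Within each replicate number KO was higher, by 1.33, 1.10 and 1.64 times for numbers 1, 2 and 3. Means were 2.48 ± 0.435 FPKM in KO and 1.91 ± 0.703 FPKM in Ctr (SD, n = 3 each), with a log2 change of 0.28 (SE 0.20, 95% interval -0.19 to 0.74, limma adjusted p = 0.9996). Without Ctr replicate 2 the log2 change was 0.46, and without Ctr replicate 3 it was 0.14. The highest Igf1 value of each group was in the library numbered 2, and so were the highest summed markers of 3 cell types. Intercalated cell markers (6 genes) summed to 225, 316 and 262 FPKM in KO and 183, 344 and 227 FPKM in Ctr. Collecting duct markers (7 genes) summed to 682, 822 and 647 FPKM in KO and 488, 839 and 809.95 FPKM in Ctr. Distal convoluted tubule markers (5 genes) summed to 687, 742 and 616 FPKM in KO and 609, 636 and 537 FPKM in Ctr. Each intercalated cell marker was highest in number 2 of both groups, but the other 2 lists were mixed. The collecting duct genes Aqp2, Aqp3 and Avpr2 were highest in replicate 3 of Ctr. Pvalb and Calb1 of the distal convoluted tubule were highest in number 1 of both groups. The part of these cell types in the Igf1 level was not tested. In these bulk samples a difference in the number of cells of a type and one in RNA per cell cannot be told apart. Igf1 (ENSMUSG00000020053, GRCm38 chromosome 10, 87858265 to 87937042, plus strand) has 8 annotated transcripts, and the values rest on about 220 to 450 fragments a library.

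Igf2, the ligand that is abundant in the fetus and low in most adult mouse tissues, was measured at a low level, on about 46 to 130 fragments a library. It had 1.12, 0.65 and 0.50 FPKM in KO and 0.65, 0.87 and 1.03 FPKM in Ctr. The lowest and the highest of the 6 values both belonged to KO, and KO over Ctr was 1.72, 0.747 and 0.485 within numbers 1, 2 and 3. The mean was 0.757 ± 0.323 FPKM in KO and 0.850 ± 0.191 FPKM in Ctr (SD, n = 3 each), with p = 0.8 (exact permutation test, two-sided). The difference of the log2 means was -0.09 with all libraries, -0.31 without both libraries numbered 1 and 0.02 without KO replicate 3. Igf2 (ENSMUSG00000048583, chromosome 7, 142650766 to 142666816, minus strand) shares 3596 exon bases with Gm49394, a gene on the same strand that was listed at 0 to 0.08 FPKM. The split of reads between them is the authors' estimate. The imprinted noncoding RNA H19, whose gene is a neighbour of Igf2, was listed at 0 to 0.05 FPKM and was chosen after its values were seen.

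Igfbp7 was the most abundant gene of the family and the least variable of the 7 tested. Its FPKM was 1006, 917 and 952 in KO and 1059.9, 924 and 1048 in Ctr. The groups overlapped, and the highest library exceeded the lowest by a factor of 1.16. KO was lower within each replicate number, with KO over Ctr at 0.949, 0.992 and 0.909. Means were 958 ± 45.0 FPKM in KO and 1011 ± 75.2 FPKM in Ctr (SD, n = 3 each), with a log2 change of -0.08 (SE 0.08, 95% interval -0.26 to 0.11, limma adjusted p = 0.9996). The log2 change was -0.14 without Ctr replicate 2 and -0.039 without Ctr replicate 1, with the other single omissions between these. By mean FPKM it ranked 59 of the 52405 identifiers. Igfbp7 (ENSMUSG00000036256, chromosome 5, 77349240 to 77408041, minus strand) is an endothelial product in many tissues. Here its level in both libraries numbered 1 was within 1.16 times that of the other 4, while the summed endothelial markers, given above, were several times higher in the libraries numbered 1. The part of endothelial cells in the Igfbp7 level was not tested. Its last exon shares 85 exon bases with Polr2b on the other strand, which had 17.3 to 19.2 FPKM.

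Igfbp4, a binding protein known for restraining IGFs until the protease pregnancy-associated plasma protein A (Pappa) cuts it, was the main high-affinity binding protein. It had 485, 499 and 575 FPKM in KO and 544, 433 and 669 FPKM in Ctr. Both the lowest and the highest library were Ctr, and KO over Ctr was 0.891, 1.15 and 0.859 within numbers 1, 2 and 3. Means were 519.6 ± 48.1 FPKM in KO and 549 ± 118 FPKM in Ctr (SD, n = 3 each), with a log2 change of -0.06 (SE 0.16, 95% interval -0.43 to 0.31, limma adjusted p = 0.9996). Without Ctr replicate 3 the log2 change was 0.09. The summed proximal tubule markers, given above, were likewise highest in Ctr replicate 3 and lowest in Ctr replicate 2. Of the single markers, Slc5a2 and Hnf4a alone had both extremes there. Slc34a1, Lrp2, Slc5a12, Aqp1 and Prom1 were highest in Ctr replicate 1, and Slc13a3 in Ctr replicate 2. Summed injured tubule markers (8 genes) also ranged from 1218 FPKM in Ctr replicate 2 to 1559 FPKM in Ctr replicate 3. Most of that sum was Spp1, with 1103 FPKM in Ctr replicate 2 and 1448 FPKM in Ctr replicate 3. Other markers of the list differed: Krt8 and Krt18 were lowest in Ctr replicate 1 and highest in KO replicate 2. Vcam1 was highest in KO replicate 1, and Havcr1 was at most 0.12 FPKM. The part of these cells in the Igfbp4 values was not tested. Igfbp4 (ENSMUSG00000017493, chromosome 11, 99041244 to 99054392, plus strand) ranked 122 of all identifiers by mean FPKM.

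The RNA of the high-affinity binding proteins was thus mostly that of Igfbp4, in both groups. Igfbp4 made up 81.4, 90.7 and 90.5% of the summed FPKM of Igfbp1 to Igfbp6 in KO and 79.9, 90.4 and 91.9% in Ctr. The share of Igfbp5 was 12.5, 5.26 and 3.96% in KO and 15.3, 4.81 and 4.96% in Ctr. The share of Igfbp1 was 5.37, 3.54 and 5.25% in KO and 4.12, 4.27 and 2.94% in Ctr. The shares of Igfbp4 and Igfbp5 differed more between number 1 and the other numbers than between KO and Ctr of the same number, and the share of Igfbp1 did not follow the numbers. Summed over Igfbp1 to Igfbp6, the binding proteins had 180, 152 and 229 times the FPKM of Igf1 and Igf2 together in KO, and 296, 134 and 302 times in Ctr.

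**Figure D3:**
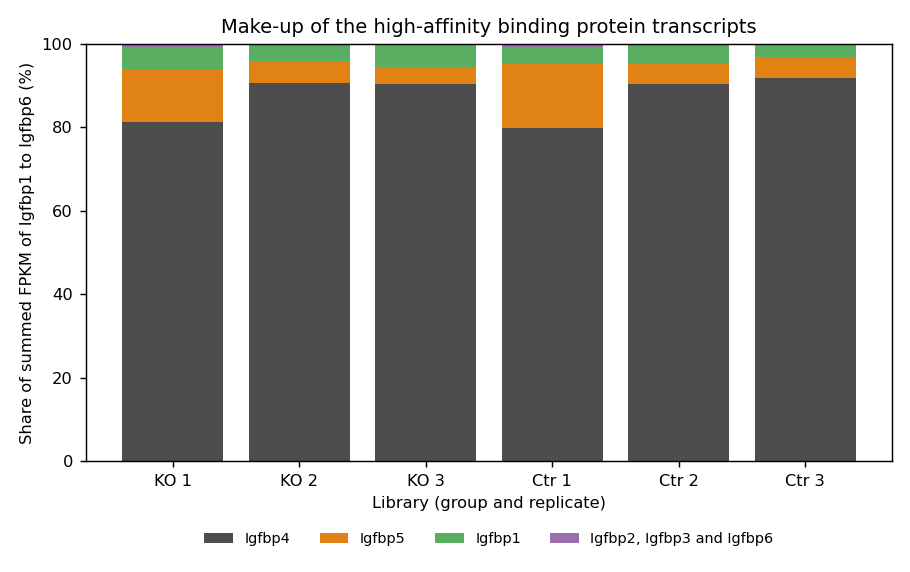
Share (%) of the summed FPKM of Igfbp1 to Igfbp6 that each gene took in each library, with the 3 KO libraries on the left and the 3 Ctr libraries on the right. Igfbp4 takes 79.9 to 91.9% of each bar, and the Igfbp5 part is larger in both libraries numbered 1 (12.5% in KO and 15.3% in Ctr) than in the other 4 (3.96 to 5.26%).

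Igfbp5, the most conserved of the binding proteins, which also binds extracellular matrix, varied most among the genes tested here. It had 74.3, 29.0 and 25.2 FPKM in KO and 104, 23.0 and 36.1 FPKM in Ctr. In both groups the library numbered 1 was far above the other 2, and the remaining 4 libraries lay between 23.0 and 36.1 FPKM with KO and Ctr interleaved. Means were 42.8 ± 27.3 FPKM in KO and 54.4 ± 43.5 FPKM in Ctr (SD, n = 3 each), with a log2 change of -0.22 (SE 0.60, 95% interval -1.63 to 1.19, limma adjusted p = 0.9996). The direction turned without Ctr replicate 1 (0.38) and without KO replicate 3 (0.06), and without both libraries numbered 1 the log2 change was -0.09. KO over Ctr was 0.714, 1.26 and 0.696 within numbers 1, 2 and 3. The same 2 libraries had the highest podocyte and endothelial sums described above. Pdgfrb and Itga8 of the fibroblast, mesangium and pericyte list, chosen after their values were seen, were also highest there. They had 5.95 and 8.93 FPKM in KO replicate 1 and 8.23 and 11.4 FPKM in Ctr replicate 1. Neither exceeded 0.83 FPKM in the other 4 libraries, but Gata3, Rgs5 and Dcn of that list did not share the split. The part of these cell types in the Igfbp5 values was not tested. Igfbp5 was higher in the libraries numbered 1 by a smaller factor than the podocyte and endothelial lists were. Igfbp5 (ENSMUSG00000026185, chromosome 1, 72857932 to 72874884, minus strand) lies 5457 bases from Igfbp2, and their 3′ ends face each other.

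Igfbp3, the main carrier of IGFs in blood, followed the replicate numbers closely. Its FPKM was 3.77, 2.26 and 1.48 in KO and 4.38, 2.18 and 1.43 in Ctr. The order of the numbers was the same in both groups, and KO over Ctr was 0.861, 1.04 and 1.03 within numbers 1, 2 and 3. Means were 2.50 ± 1.16 FPKM in KO and 2.66 ± 1.53 FPKM in Ctr (SD, n = 3 each), with a log2 change of -0.04 (SE 0.34, 95% interval -0.84 to 0.77, limma adjusted p = 0.9996). The log2 change was 0.28 without Ctr replicate 1, 0.19 without KO replicate 3 and 0.03 without both libraries numbered 1. Marker sums of several cell types had the same order of numbers as Igfbp3 in both groups. The endothelial sum was 210.5, 34.2 and 26.4 FPKM in KO and 262, 38.3 and 30.8 FPKM in Ctr. That of fibroblasts, mesangium and pericytes (11 genes) was 52.3, 23.9 and 20.65 FPKM in KO and 53.8, 33.0 and 19.9 FPKM in Ctr. That of smooth muscle and renin cells (6 genes) was 68.5, 33.6 and 24.6 FPKM in KO and 48.2, 43.0 and 28.9 FPKM in Ctr. The lymphocyte sum (6 genes) was low, at 2.04, 0.8 and 0.68 FPKM in KO and 1.76, 1.19 and 0.72 FPKM in Ctr. Single genes did not all follow these sums. Among the smooth muscle and renin markers, Myh11, Tagln and Ren1 were highest in replicate 2 of Ctr. So were Gata3 and Rgs5, the most abundant genes of the fibroblast, mesangium and pericyte list. The part of these cell types in the Igfbp3 values was not tested.

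**Figure D4:**
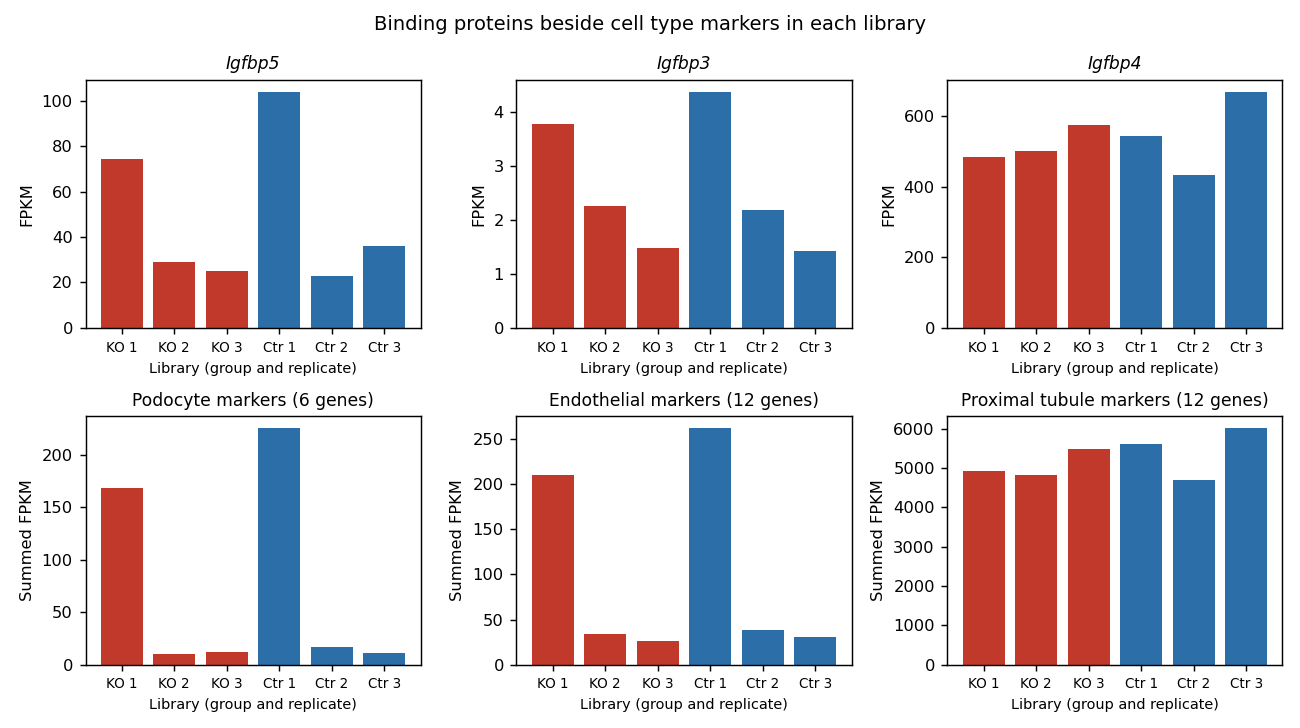
FPKM of Igfbp5, Igfbp3 and Igfbp4 (top) and summed FPKM of podocyte, endothelial and proximal tubule markers (bottom) in each library, KO in red on the left and Ctr in blue on the right; all axes start at 0. Igfbp5, Igfbp3 and the podocyte and endothelial markers are highest in the libraries numbered 1 of both groups, and Igfbp4 is not.

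Igfbp1, whose gene lies 3539 bases from Igfbp3 with the 3′ ends facing each other and whose window is printed above, had a higher mean in KO, within the spread between libraries. It had 32.0, 19.5 and 33.3 FPKM in KO, against 28.1, 20.45 and 21.4 FPKM in Ctr. The highest 2 of the 6 values were KO, and so was the lowest. Means were 28.3 ± 7.62 FPKM in KO and 23.3 ± 4.14 FPKM in Ctr (SD, n = 3 each), with a log2 change of 0.24 (SE 0.22, 95% interval -0.26 to 0.75, limma adjusted p = 0.9996). KO over Ctr was 1.14, 0.954 and 1.55 within numbers 1, 2 and 3. The log2 change was 0.48 without KO replicate 2 and 0.11 without KO replicate 3, with other omissions between these. Igfbp1 (ENSMUSG00000020429, chromosome 11, 7197782 to 7202546, plus strand) has 1 annotated transcript with 4 exons.

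Igfbp6, which prefers Igf2 over Igf1, and Igfbp2, which is abundant in liver and the fetus, were close to the lowest values that could be measured. Igfbp6 had 0.38, 0.27 and 0.29 FPKM in KO and 0.53, 0.09 and 0.08 FPKM in Ctr. The Ctr library numbered 1 was the highest and the other 2 Ctr libraries the lowest, and KO over Ctr was 0.717, 3.00 and 3.63 within numbers 1, 2 and 3. Means were 0.313 ± 0.0586 FPKM in KO and 0.233 ± 0.257 FPKM in Ctr (SD, n = 3 each; exact permutation test, two-sided, p = 0.6). Igfbp2 had 0.48, 0.15 and 0.26 FPKM in KO and 0.22, 0.05 and 0.25 FPKM in Ctr, with means of 0.297 ± 0.168 FPKM in KO and 0.173 ± 0.108 FPKM in Ctr (SD, n = 3 each) and p = 0.4 in the same exact permutation test. KO held the highest Igfbp2 value and Ctr the lowest, the groups overlapped, and KO was higher within each replicate number, by 2.18, 3.00 and 1.04 times. These values rest on roughly 1.4 to 15 fragments a library for Igfbp2 and 1.9 to 12 for Igfbp6, so that counting error is large in single libraries. The genes are on chromosome 15 (102144362 to 102149511, Igfbp6) and chromosome 1 (72824503 to 72852474, Igfbp2), both on the plus strand.

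Igfals was measured at a low and even level. It had 9.14, 8.88 and 8.56 FPKM in KO, against 8.56, 7.99 and 7.59 FPKM in Ctr. The lowest KO value equalled the highest Ctr value, so the groups touched without crossing. Means were 8.86 ± 0.291 FPKM in KO and 8.05 ± 0.487 FPKM in Ctr (SD, n = 3 each), with a log2 change of 0.13 (SE 0.08, 95% interval -0.07 to 0.32, limma adjusted p = 0.9996). KO was higher within each of the 3 replicate numbers, by 1.07, 1.11 and 1.13 times. The upper end of the interval is a 1.25-fold change of FPKM + 1. Igfals (ENSMUSG00000046070, chromosome 17, 24865997 to 24882010, plus strand) has 6 annotated transcripts. Only 1 of them is coding, with 2625 bases and 2 exons. The FPKM is given per gene and does not separate coding from noncoding transcripts.

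Genes that act around the ligands and binding proteins were read from 4 lists, and in each of them 0 genes passed in either direction. Of the 4 receptor genes, all tested, 0 had a higher and 4 a lower estimate in KO, beside 43.6% of all genes with a higher one. Igf1r is the deleted gene, so its lower estimate was set by the design, and the estimate of Insrr was only -0.0070. The median log2 change of the 4 genes, Igf1r among them, was -0.20, and Igf1r was the 1 gene with an unadjusted p under 0.05. The insulin receptor gene Insr had 10.2, 12.04 and 13.1 FPKM in KO, against 14.2, 13.9 and 13.8 FPKM in Ctr. Every KO value was below every Ctr value, as for Igf1r, a split without overlap that 8.59% of all genes showed in one direction or the other. The log2 change of Insr was -0.24 (SE 0.10), with a limma adjusted p of 0.9996. Insrr, the insulin receptor-related receptor gene, chosen after its values were seen, had 11.7, 15.2 and 13.85 FPKM in KO and 9.47, 18.4 and 14.3 FPKM in Ctr, with a log2 change of -0.0070 (SE 0.22). Igf2r, the receptor that takes up and clears Igf2, averaged 12.03 ± 1.42 FPKM in KO and 13.7 ± 1.68 FPKM in Ctr (SD, n = 3 each), with a log2 change of -0.17 (SE 0.12). Median log2 changes of the other lists lay between -0.11 and -0.06, beside -0.02 over all genes tested.

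Of the 15 binding protein proteases and their inhibitors, 8 were tested, 2 with a higher and 6 with a lower estimate, and 0 had an unadjusted p under 0.05. The serine protease Htra1, which can cut Igfbp5, averaged 54.8 ± 11.5 FPKM in KO and 66.1 ± 11.1 FPKM in Ctr, and the metalloprotease Adam9 averaged 29.5 ± 1.42 FPKM in KO and 32.9 ± 1.97 FPKM in Ctr. The urokinase gene Plau averaged 166 ± 22.2 FPKM in KO and 133 ± 33.2 FPKM in Ctr (SD, n = 3 each). Groups overlapped for each of these 3. Pappa, the protease of Igfbp4, had 1.36, 2.13 and 1.29 FPKM in KO and 1.32, 1.73 and 1.53 FPKM in Ctr. Plat, the tissue plasminogen activator gene, showed the same split as Igfbp5, with 62.3 FPKM in KO replicate 1 and 88.8 FPKM in Ctr replicate 1, against 2.41 to 3.17 FPKM in the other 4 libraries. Pappa and Plat were chosen after their values were seen.

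Of the 8 genes of the growth hormone axis, which drives Igf1, 7 were tested, with 3 higher and 4 lower estimates and 0 at an unadjusted p under 0.05. The growth hormone receptor gene Ghr averaged 82.2 ± 9.69 FPKM in KO and 93.2 ± 8.70 FPKM in Ctr (SD, n = 3 each). Socs2, a target and brake of that receptor, had 6.89, 9.47 and 9.04 FPKM in KO and 5.69, 10.1 and 4.52 FPKM in Ctr. Cish, a related target, had 11.2, 24.5 and 27.0 FPKM in KO and 11.03, 19.7 and 14.9 FPKM in Ctr. Both overlapped between the groups, and both were highest in Ctr replicate 2 among the Ctr libraries, as was Igf1. Among the KO libraries Socs2 and Igf1 were highest in replicate 2, but Cish was highest in replicate 3. Of 15 genes related to the family by name or domain, 5 were tested, with 2 higher and 3 lower estimates and 0 at an unadjusted p under 0.05. Crim1, a membrane protein with an IGF-binding-protein motif, averaged 24.9 ± 2.79 FPKM in KO and 28.2 ± 1.42 FPKM in Ctr, and the RNA-binding protein gene Igf2bp2 averaged 1.87 ± 0.153 FPKM in KO and 2.10 ± 0.183 FPKM in Ctr (SD, n = 3 each). Esm1, an endothelial proteoglycan gene, was high in the libraries numbered 1, with 3.16, 0.91 and 0.30 FPKM in KO and 4.76, 0.98 and 0.17 FPKM in Ctr.

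Profiles over the 6 libraries were compared for the 5 genes of the family whose log2(FPKM + 1) spanned at least 0.5 and whose mean was at least 1 FPKM. Likeness was the root mean square difference of log2(FPKM + 1) after centring each gene on its mean, over 6 libraries and 12768 other genes. Closest to Igfbp5 was Rhpn1, at 0.12, with 10.5, 2.80 and 3.16 FPKM in KO and 16.0, 2.77 and 4.34 FPKM in Ctr, and next was Sema3f at 0.15. No gene came within 0.1 of Igfbp5, while 104 genes came within 0.1 of Igfbp4, so that likeness to Igfbp4 sets few genes apart. The measure is not scaled to a gene's own spread, an SD of log2 values of 0.80 for Igfbp5 and 0.20 for Igfbp4. Distances and counts within 0.1 are therefore not comparable between genes of the family. Closest to Igfbp3 were Fmnl3 (0.05) and Tmsb4x (0.06), the actin-binding thymosin beta gene, with 5 genes within 0.1. Closest to Igfbp1 were Mrnip (0.07) and Smyd3 (0.08), with 5 genes within 0.1. For Igf1 they were Nol3 and Ddit4 (0.07 each), with 21 genes within 0.1, and for Igfbp4 Slc35e3 (0.04) and Appl1 (0.05). The measure is a description of these 6 libraries.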

How the data were processed

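RNA-seq was made from 3 KO and 3 Ctr samples of prominin-1-positive kidney cortex cells with a strand-preserving kit, per the labels' protocols. The authors deposited FPKM values with 2 decimals, 1 column per library, for 52405 Ensembl identifiers. Per the submitters' processing notes the tools were STAR 2.6.0c, RSEM and DESeq2 1.28.1, whose roles are not stated. Which build and annotation the authors used, and whether strand was counted, is not given in the sources used here. Gene positions come from GENCODE M21 (GRCm38), which held 99.4% of the identifiers, and promoter sequences from RefSeq.

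FPKM is relative to a library's own total. Values were used as log2(FPKM + 1). The two-sided moderated test of limma 3.58.1 (R 4.3.3), with a prior variance that follows the mean level, was run on genes with a mean of at least 1 FPKM. Adjustment was by Benjamini-Hochberg across these 12770 genes, and the threshold was 0.05. The test was checked on simulated data with noise independent between libraries and added changes larger than any estimate of the 10 genes. That check did not cover signal shared by libraries of the same number, or the recovery of smaller changes. The 10 genes also had exact permutation tests (SciPy 1.17.1). The files hold no counts. The depth was inferred from the steps in low values with a gene's transcript length from GENCODE, so it and all numbers of fragments are approximate, and the unit counted may have been a read.

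Deviations from the group means correlated over genes by 0.626, 0.293 and 0.368 between KO and Ctr libraries of the same number 1, 2 and 3. Each exceeds 0.1, but so do KO replicate 2 with Ctr replicate 3 (0.297) and KO replicate 3 with Ctr replicate 2 (0.155). Deviations from a group mean cancel out within the group, so a signal shared by the libraries numbered 1 raises the correlations among the others. The libraries numbered 1 go together in the data, but whether those numbered 2 and 3 are paired cannot be told. No pairing is stated in the labels. All printed errors, intervals and p-values come from the unpaired fit and tests unless the replicate block is named. The fit with the number as a block was an alternative, beside other pseudocounts, filters and scalings and fits without single libraries.

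Named by rule beside the 10 genes are Igf1r, the 3 genes of each surrounding list with the smallest p, the most abundant cell type markers, and the 2 closest profiles. Other genes, among them the less abundant markers named for the library where they were highest or lowest, were chosen after their values were seen. One podocyte marker of the planned list is not reported here and was left out of the sum. The 10 genes and all lists were chosen with earlier results of these data known.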

Additional observations from a re-analysis of the deposited data

How the results depend on the processing

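The 7 tested genes did not pass the threshold under any alternative that held them: a pseudocount of 0.1, no filter on low values, a mean of at least 5 FPKM, quantile normalization, rescaling without mitochondrially encoded genes, a common median, the replicate block, each library left out in turn, and both libraries numbered 1 left out. Igf1 and Igfbp3 were not in the test at a mean of at least 5 FPKM, and Igf2, Igfbp2 and Igfbp6 were tested with no filter alone, where they did not pass. With the replicate block the 7 tested genes had limma adjusted p between 0.880 and 0.982, and 3 genes of the whole table were higher and 1 lower in KO, so the block changed no call of the family. The block narrowed the SE of Igfbp5 to 0.17, against 0.60 without it, and that of Igfbp3 to 0.12, against 0.34. Over the whole table, 2 genes were higher and 1 lower in KO. The number higher was 1 with no filter, 1 at a mean of at least 5 FPKM and 4 without both libraries numbered 1. The number lower was 0 with the pseudocount of 0.1, 2 with no filter, 0 at a mean of at least 5 FPKM, 0 after quantile normalization, 0 after rescaling and 2 without both libraries numbered 1. Leaving out 1 library each gave 0 to 3 genes higher and 0 to 1 lower. The cause was not tested.

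Directions turned for 3 tested genes. With 1 library left out each, the log2 change of Igfbp3 ran from -0.29 to 0.28, that of Igfbp4 from -0.22 to 0.094 and that of Igfbp5 from -0.70 to 0.38. Without both libraries numbered 1 that of Igfbp3 was 0.033. Igf1, Igfals and Igfbp1 kept a higher and Igfbp7 a lower estimate in KO in every alternative that held them. With a pseudocount of 0.1 the log2 differences of the scarce Igfbp2 and Igfbp6 grew to 0.55 and 0.56. No scaling turned a direction. The values of Igfbp2 and Igfbp6 rest on few fragments, and 3 libraries a group limit all.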
